A study of Mus musculus with 8 samples.

Results

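The genes of central carbon metabolism were followed here as 47 genes in 4 groups. They were 20 genes of glucose transport and glycolysis, 7 of the pentose phosphate pathway, 16 of pyruvate dehydrogenase and the tricarboxylic acid (TCA) cycle, and 4 genes linked to hypoxia. They were chosen by pathway membership, by symbol, out of 34945 named genes, and all 47 were found. The choice was made with earlier results of these data known. Of these, 46 had a mean of at least 10 over the libraries and entered the test. The remaining gene was Ldhb, the lactate dehydrogenase B subunit, whose values lay between 0 and 2.30 in all 8 libraries.

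The libraries came from AML12, a mouse hepatocyte line derived from a mouse with a human TGF-alpha transgene, so every library shares that background and comes from 1 cell line. The 4 control cultures received a scrambled siRNA (Scr, labelled wild type) and the 4 treated cultures received Casp8 siRNAs (siCasp8, labelled Casp8 knockdown), each at 40 nM with a lipid reagent and for 48 hours. Casp8 encodes caspase-8, the initiator protease of death receptor signalling. Poly-A RNA was sequenced from each culture, and values are the deposited normalized values per gene. The design text calls the cultures biological replicates, and the limma p-values below set the difference between groups against the spread between these cultures.

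Glycolysis splits glucose to pyruvate in the cytosol, and lactate dehydrogenase regenerates the NAD+ that it needs. The pentose phosphate pathway branches off at glucose 6-phosphate and yields NADPH and ribose 5-phosphate, while pyruvate dehydrogenase admits pyruvate to the TCA cycle in the mitochondrion. In hepatocytes the glucose transporter is typically GLUT2, encoded by Slc2a2, whereas proliferating and hypoxic cells typically rely on GLUT1, encoded by Slc2a1, and hypoxia-inducible factor (HIF) induces many glycolytic genes through sites with the core ACGTG or GCGTG.

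Mean Casp8 fell from 3972 ± 129 (SD, n = 4) in control libraries to 1480 ± 108 (n = 4) after knockdown, a log2 fold change of -1.43 (SE 0.0525, limma adjusted p = 5.94e-09), and the groups did not overlap. Depth, estimated from the spacing of low values, was 30.7 to 51.8 M reads in Scr and 50.2 to 57.0 M in siCasp8 (p = 0.0571, exact two-sided permutation test). Depth and group therefore moved together. Of the hepatocyte markers, 12 of 15 were tested, and Apoa2, Cyp2e1 and Cps1 stayed at or below 10 in every library. The summed hepatocyte markers were 142740 to 151280 in Scr and 152938 to 156427 in siCasp8. These sums rest on the most abundant markers: of the 12 tested genes 6 were higher and 2 lower (median 0.33 on the log2 scale), and Alb, the albumin gene, was 86.4 ± 10.7 in Scr and 3626 ± 248.9 in siCasp8 (5.38, limma adjusted p = 4.13e-12). The summed cholangiocyte markers were 114618 to 123301 and 129229 to 136579, with Epcam at or below 10. Of the 6 tested cholangiocyte markers 2 were higher and 3 lower (median -0.0003), so the higher sum does not hold for each marker. With upper quartile rescaling, quantile normalization or estimated depth as a covariate, 0 of these 6 markers were lower. The macrophage markers summed to 2826 to 3029 and 2190 to 2348, with Adgre1, Clec4f and Lyz2 at or below 10. Of the 4 tested macrophage markers 0 were higher and 2 lower. Stellate cell and fibroblast markers summed to 117 to 176 and 94.2 to 171, with 5 of 8 at or below 10, and endothelial markers to 186 to 536 and 178 to 301, with 5 of 6 at or below 10. All 15 cell division genes fell, and their summed share of the library total went from 0.113% ± 0.00731 to 0.0618% ± 0.000925. Beside these marker and cell division counts, 19.4% of all 14154 tested genes were called higher and 20.8% lower. The part of depth, these markers and cell division in the results below was not tested. In bulk RNA, fewer cells expressing a gene and less of its RNA per cell cannot be told apart.

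Groups were compared with limma on log2(value + 1), and a gene is called where its p, adjusted over all tested genes, is under 0.05. Of the 46 tested genes, 26 were called, 9 higher and 17 lower in siCasp8. That is 56.5%, against 40.2% of all 14154 tested genes, of which 19.4% were higher and 20.8% lower. Among all tested genes with a mean of at least 1000, a range that holds 41 of the 47, the share called was 48.4%, with 20.4% higher and 27.9% lower. The fold changes were small: none of the 26 reached 1 on the log2 scale in either direction, and 16 were under 0.3. The median log2 fold change was -0.07, beside 0.00252 over all tested genes. The groups did not overlap in 23 of the 46 tested members (50.0%), against 37.5% of all tested genes and 44.7% of those with a mean of at least 1000.

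The split between higher and lower depended on how the libraries were scaled. Rescaling to the upper quartile raised the median of all genes to 0.10 and gave 15 higher and 12 lower members, with 4471 higher and 1665 lower genes over the whole table in place of 2739 and 2950. Quantile normalization gave 11 and 14 members and 2968 and 2672 genes. With estimated depth as a covariate, 6 members were higher and 10 lower (34.8%), and 1302 genes were higher and 1494 lower over the whole table. Of the 26 calls, 16 held under all 18 alternatives.

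In glycolysis, 4 of 19 tested genes were higher and 10 lower (73.7%, median -0.15 on the log2 scale). Pentose phosphate genes gave 1 higher and 2 lower of 7 (42.9%, median -0.03). Pyruvate dehydrogenase and TCA genes gave 2 higher and 5 lower of 16 (43.8%, median -0.05), and the hypoxia-linked genes 2 higher and 0 lower of 4 (50.0%, median 0.05). The last 3 shares lie near the 40.2% of all genes, and whether the pathways differ from each other was not tested. The order of the shares was not stable: without Scr replicate 4 or without siCasp8 replicate 3, 57.9% of glycolysis genes and 75.0% of the hypoxia-linked genes were called, and upper quartile rescaling gave 63.2% for glycolysis and 62.5% for the TCA group. Under upper quartile rescaling the counts higher and lower became 5 and 7 in glycolysis, 2 and 1 in pentose phosphate, 6 and 4 in the TCA group and 2 and 0 in the hypoxia-linked group. With the depth covariate they were 3 and 7, 0 and 1, 2 and 2, and 1 and 0. Beside these, of all 14154 tested genes 6136 were called under upper quartile rescaling and 2796 with the depth covariate. Without Scr replicate 4 the number was 5191, and without siCasp8 replicate 3 it was 5158, against 5689 in the main fit.

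**Figure D1:**
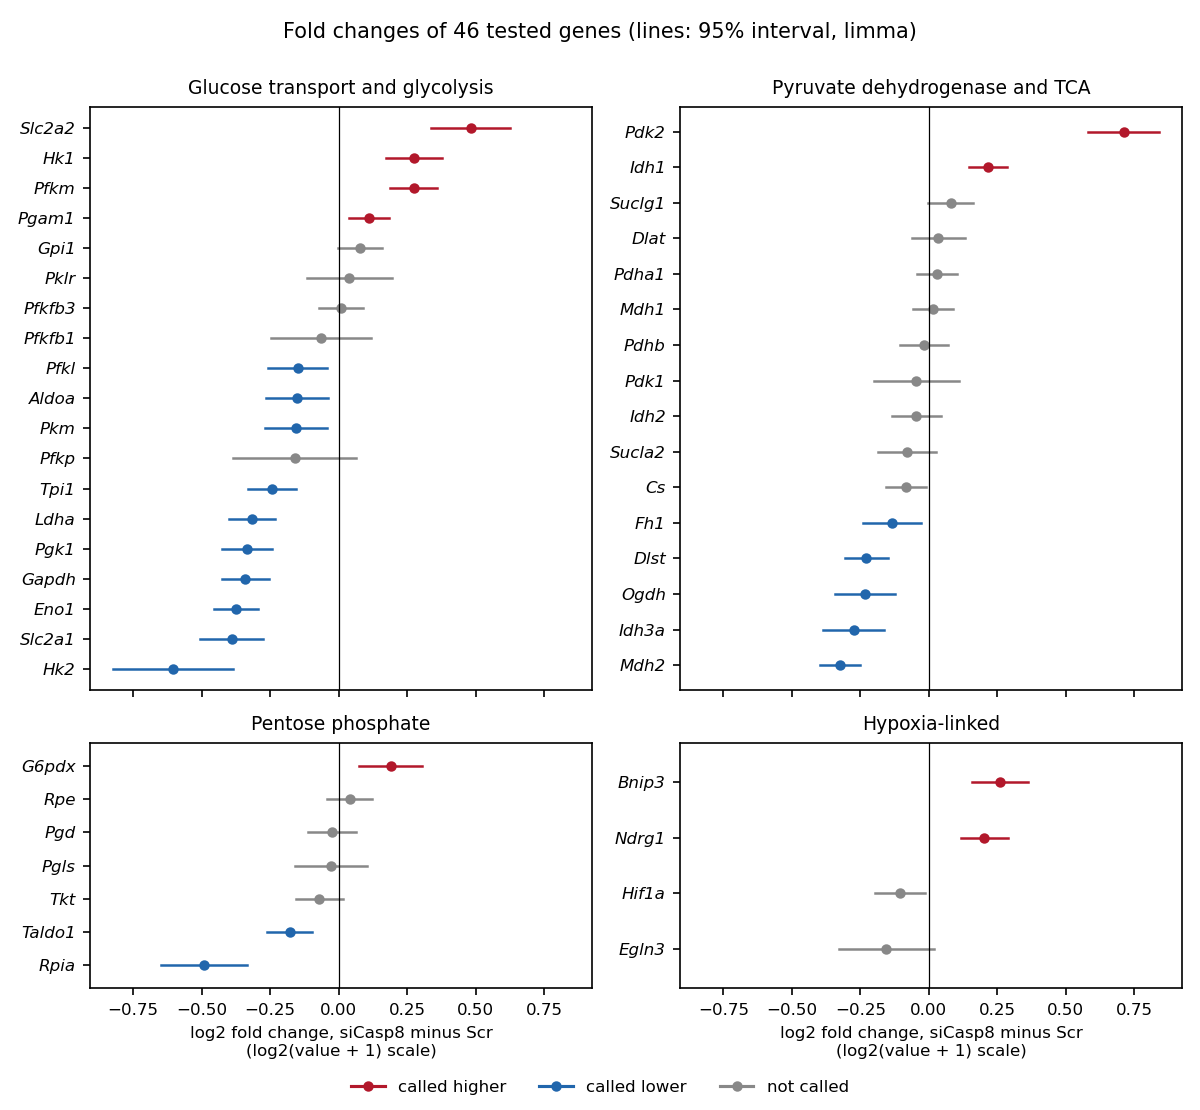
Log2 fold change of siCasp8 minus Scr on the log2(value + 1) scale (horizontal axis) for the 46 tested genes in the 4 groups, with 95% intervals from limma. Points run from -0.61 for Hk2 to 0.71 for Pdk2, with 9 called higher and 17 called lower.

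Glucose entry showed opposite calls for the 2 transporters. Slc2a1 (chr4:119108711-119137983, plus strand, GRCm38) stood at 1835, 1795, 1646 and 1653 in Scr replicates 1 to 4 and at 1353, 1241, 1311 and 1378 in siCasp8. It fell by 0.39 on the log2 scale (SE 0.0532, adjusted p = 9.69e-05), and all 4 siCasp8 libraries lay under all Scr libraries. Slc2a2 (chr3:28697903-28731359, plus strand) was 846, 886, 1038 and 900 in Scr and 1194, 1343, 1303 and 1276 in siCasp8. Its rise was 0.48 (SE 0.0668, adjusted p = 0.000111), again with no overlap. Within a library, the Slc2a1 to Slc2a2 ratio was 1.90 ± 0.252 in the Scr group (SD, n = 4) and 1.04 ± 0.0907 in siCasp8 (n = 4); such ratios were not tested. Per kilobase of the longest annotated transcript, the mean levels were 531 and 165 in Scr and 405 and 230 in siCasp8. On that scale Slc2a1 remained the higher of the pair in both groups. In deposited values the siCasp8 ratio ran from 0.924 to 1.13.

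The hexokinases, which phosphorylate glucose on entry, also split. Hk2 (chr6:82725025-82774454, minus strand), the inducible isozyme, read 414, 386, 343 and 473 in Scr and 276, 256, 245 and 278 in siCasp8. The fall of 0.61 (log2 fold change -0.61, SE 0.1, adjusted p = 0.00042) was the largest fall of the 46 genes. Hk1 (chr10:62268855-62379908, minus strand), the housekeeping isozyme, read 2617, 2890, 2542 and 2823 in Scr and 3310, 3307, 3155 and 3365 in siCasp8. Hk1 rose by 0.27 (SE 0.047, adjusted p = 0.000545), and neither hexokinase had overlapping groups. The Hk1 to Hk2 ratio was 6.79 ± 0.767 in Scr and 12.5 ± 0.493 in siCasp8. Scr replicate 3 held the lowest Scr value of both genes. Per kilobase, Hk1 was at 635 and Hk2 at 73.3 in Scr, and at 768 and 47.9 in siCasp8.

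To show the promoter sequence of genes called in opposite directions, the 150 bases before a RefSeq start are given for Hk2, Ldha and Pgk1, which fell, and for Bnip3 and Hk1, which rose. They are RefSeq promoter sequences (GRCm38.p6), 5′ to 3′ on the gene's strand, and end at the base before the most upstream start in the RefSeq promoter table. The GENCODE gene models differ for 2 of them: the Ldha stretch lies inside the gene span given for Ldha under its values, outside its exons, and 13 bases of the Bnip3 stretch are in a GENCODE exon. Capitals mark ACGTG on either strand (CACGT on the strand shown).
Hk2, chr6:82774455-82774604, minus strand: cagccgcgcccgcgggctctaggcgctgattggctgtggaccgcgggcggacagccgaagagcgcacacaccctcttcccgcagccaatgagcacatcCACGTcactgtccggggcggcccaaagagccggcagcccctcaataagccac
Ldha, chr7:46845654-46845803, plus strand: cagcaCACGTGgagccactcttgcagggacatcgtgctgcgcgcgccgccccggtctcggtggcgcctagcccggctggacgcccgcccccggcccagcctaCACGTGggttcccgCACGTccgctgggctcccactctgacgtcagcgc
Pgk1, chrX:106186950-106187099, plus strand: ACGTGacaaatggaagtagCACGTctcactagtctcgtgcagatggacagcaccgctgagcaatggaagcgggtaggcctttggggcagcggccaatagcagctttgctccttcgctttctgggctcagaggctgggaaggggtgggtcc
Bnip3, chr7:138909507-138909656, minus strand: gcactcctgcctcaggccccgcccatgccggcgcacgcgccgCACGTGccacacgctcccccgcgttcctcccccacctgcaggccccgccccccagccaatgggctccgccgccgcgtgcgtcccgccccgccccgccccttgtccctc
Hk1, chr10:62379909-62380058, minus strand: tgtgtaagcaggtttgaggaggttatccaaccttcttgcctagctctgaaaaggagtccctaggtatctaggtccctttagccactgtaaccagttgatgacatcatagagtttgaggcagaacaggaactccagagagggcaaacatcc

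Over the full 300-base windows (250 before to 50 after each start), 45 of the 47 genes matched an entry, and Idh3a and Ndrg1 did not. ACGTG was present on either strand in 19 of 45 (42.2%), against 28.1% of tested genes and 21.8% of all genes in the table. By group, 11 of 20 glycolysis genes, 1 of 7 pentose phosphate genes, 4 of 15 TCA genes and 3 of 3 hypoxia-linked genes held it. By call, 6 of the 8 higher genes with an entry, 8 of the 16 lower genes and 5 of the 20 uncalled genes (the untested Ldhb apart) held it. A gene can have several start windows, with 69 for the 45 members and 13539 for 10639 tested genes. Counted by window, 7 of 14 (50.0%) for higher genes, 14 of 27 (51.9%) for lower genes and 6 of 27 (22.2%) for uncalled genes held ACGTG, against 27 of 69 (39.1%) for all members and 24.3% for tested genes. CACGTG, which contains ACGTG, was in 7 of 45 (15.6%; 11.2% of tested genes), and GCGTG in 28 of 45 (62.2%; 53.8% of tested genes). GCGTG ordered the groups otherwise. It was in 12 of 20 glycolysis genes, 6 of 7 pentose phosphate genes, 9 of 15 TCA genes and 1 of 3 hypoxia-linked genes. Across calls, GCGTG was in 6 of the 8 higher genes, 10 of the 16 lower genes and 11 of the 20 uncalled genes. These are letter matches, with no data on binding.

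At phosphofructokinase, the committed step, the muscle-type gene rose and the liver-type gene fell. Pfkm (chr15:98092589-98132451, plus strand) was 2479, 2653, 2603 and 2727 in Scr and 3156, 3146, 3101 and 3238 in siCasp8, a log2 fold change of 0.27 (SE 0.0396, adjusted p = 0.000155) with no overlap. Pfkl was 3091, 3172, 2805 and 3050 in Scr and 2821, 2742, 2533 and 2829 in siCasp8, a log2 fold change of -0.15 (SE 0.0498, adjusted p = 0.0305). The Pfkl groups overlapped at Scr replicate 3. The Pfkl call was lost under 9 alternatives, among them upper quartile rescaling (-0.05, adjusted p = 0.5), the depth covariate (-0.12, adjusted p = 0.347) and leaving out any of Scr replicates 1, 2 and 4 or siCasp8 replicates 2 and 3. Pfkp, the platelet-type gene, was 356, 311, 259 and 318 in Scr and 305, 267, 274 and 261 in siCasp8 and did not pass (-0.16, SE 0.103, adjusted p = 0.239). The Pfkl to Pfkm ratio was 1.16 ± 0.0759 in Scr and 0.864 ± 0.0330 in siCasp8, without overlap, while Pfkl to Pfkp was 9.83 ± 0.919 and 9.91 ± 0.788. Pfkfb1 and Pfkfb3, whose enzymes set the level of the activator fructose 2,6-bisphosphate, were not called (-0.07 with a 95% interval of -0.25 to 0.12, and 0.01 with -0.07 to 0.09).

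In the middle and lower steps, most genes fell. Gapdh (chr6:125161715-125166467, minus strand), the glyceraldehyde 3-phosphate dehydrogenase gene often used as a reference, was 21692, 21186, 19500 and 20427 in Scr and 16230, 17027, 16375 and 15721 in siCasp8. Its log2 fold change was -0.34 (SE 0.0397, adjusted p = 2.69e-05). Eno1 (chr4:150236721-150248879, plus strand), enolase 1, was 23437, 23326, 22065 and 22556 in Scr and 16696, 17796, 17702 and 18293 in siCasp8. Eno1 fell by 0.37 (SE 0.0365, adjusted p = 6.16e-06). Both genes were lower in every siCasp8 library than in any Scr library, at 78.9% and 77.1% of the Scr mean. Tpi1, triosephosphate isomerase, fell by 0.24 (adjusted p = 0.000433) and Pgk1, phosphoglycerate kinase, by 0.34 (adjusted p = 5.03e-05). Aldoa, aldolase A, passed at -0.15 (adjusted p = 0.0336) with overlapping groups, and its call was lost under 10 alternatives, including the depth covariate (-0.05, adjusted p = 0.724) and leaving out any of Scr replicates 1 and 2 or siCasp8 replicates 2, 3 and 4.

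Among the members of the middle and lower steps, only Pgam1, phosphoglycerate mutase 1, was called higher. It was 15786, 15521, 14671 and 15071 in Scr and 16763, 15978, 16401 and 16773 in siCasp8, a rise of 0.11 (SE 0.0339, adjusted p = 0.0203) with no overlap. The call was lost with the depth covariate (0.16, adjusted p = 0.0556) and without Scr replicate 4, siCasp8 replicate 1 or siCasp8 replicate 4 (adjusted p at most 0.0615). Gpi1, glucose 6-phosphate isomerase, was not called (0.08, adjusted p = 0.115) but passed at 0.18 (adjusted p = 0.00189) under upper quartile rescaling.

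At the exit of glycolysis, Pkm (chr9:59656368-59679375, plus strand), the pyruvate kinase gene that is the major form outside adult liver, had the highest mean value of the glycolysis genes. It was 55717, 55291, 47115 and 51886 in Scr and 49036, 45944, 45566 and 47555 in siCasp8, with a log2 fold change of -0.16 (SE 0.0514, adjusted p = 0.0287). Scr replicate 3 lay within the siCasp8 range, and the call was lost under 8 alternatives, including upper quartile rescaling (-0.06, adjusted p = 0.419), the depth covariate (-0.07, adjusted p = 0.587) and leaving out any of Scr replicates 1, 2 and 4 or siCasp8 replicates 2 and 3. Pklr, the liver and red cell pyruvate kinase, was 2762, 3169, 2597 and 2634 in Scr and 2960, 2645, 2690 and 3165 in siCasp8 and was not called (0.04, SE 0.0708, adjusted p = 0.706). The Pkm to Pklr ratio was 18.9 ± 1.28 and 16.5 ± 1.02, and per kilobase Pkm stood at 21588 and Pklr at 962 in Scr. Ldha (chr7:46841475-46855627, plus strand), lactate dehydrogenase A, was 15409, 15106, 14049 and 14853 in Scr and 12257, 11383, 11843 and 12208 in siCasp8. Ldha fell by 0.32 (SE 0.0382, adjusted p = 3.6e-05) with no overlap. Since Ldhb was at or near 0, no Ldha to Ldhb ratio was formed.

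**Figure D2:**
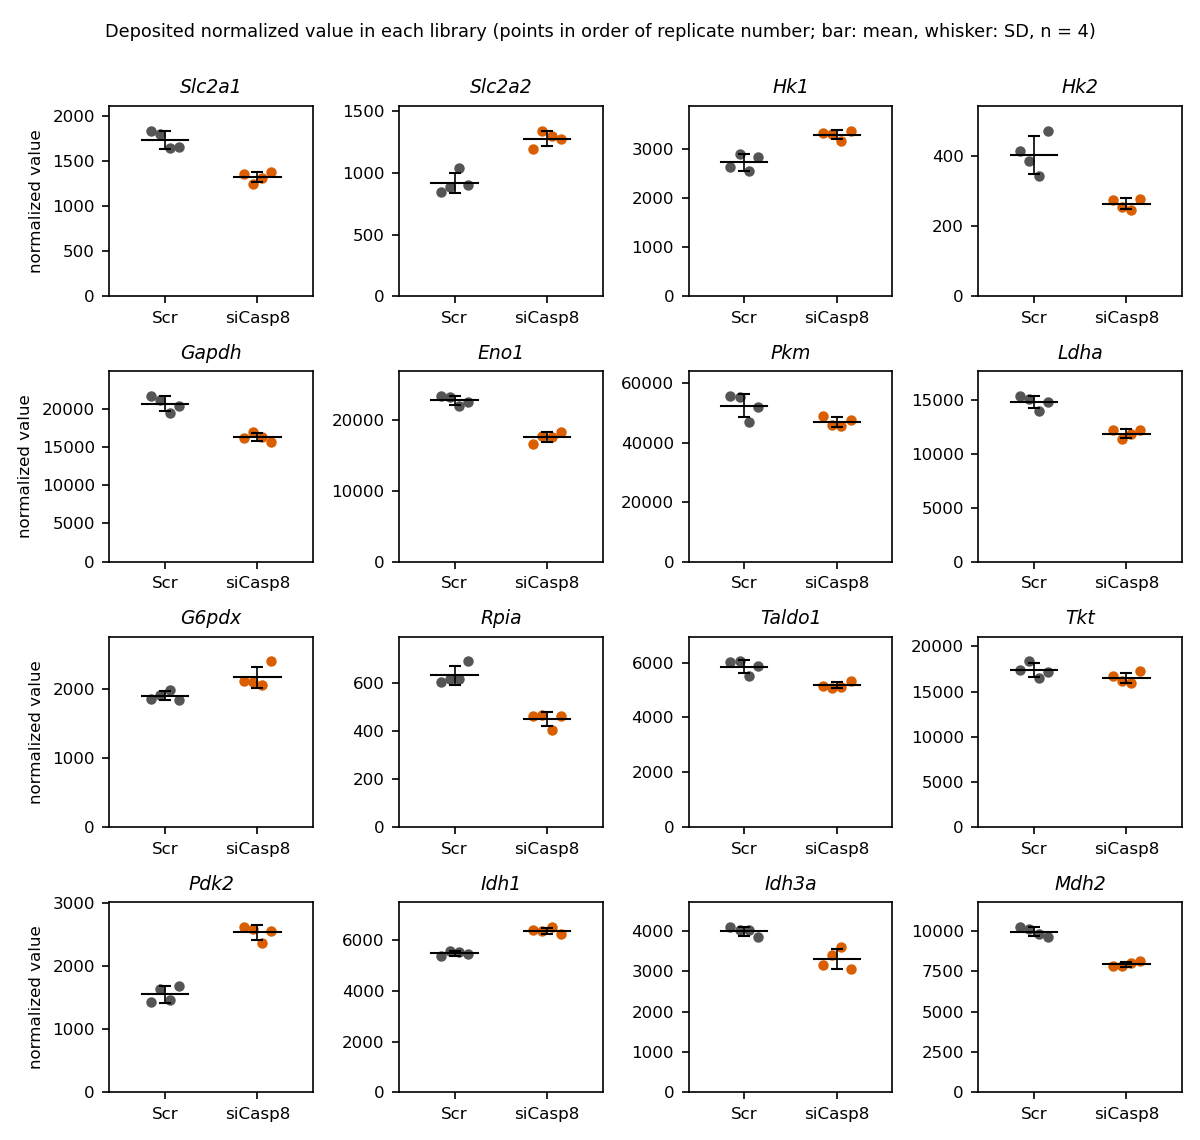
Deposited normalized value (vertical axis, from 0) of 16 genes in the 4 Scr and 4 siCasp8 libraries, each point 1 library in order of replicate number, with the mean and SD. The groups separate for every gene drawn except Pkm and Tkt. All genes drawn but Tkt were called, so this separation follows from the choice of genes. Groups did not overlap in 23 of the 46 tested members, 37.5% of all tested genes and 44.7% of those with a mean of at least 1000.

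Values of several glycolytic genes share sequence with near-identical copies. Of the 47 genes, 11 share over 20% of their 31-base words with other annotated genes, among them Pgk1 at 68.3%, Gapdh at 62.6% and Eno1 at 53.5%. Eno1b, a copy of Eno1, was listed at 16342 ± 685 in Scr and 12851 ± 309 in siCasp8, so the split of reads between the pair is uncertain. Their sum was 39188 ± 1276 and 30473 ± 896, a log2 fold change of -0.36 (SE 0.0357, adjusted p = 6.65e-06). Gapdh summed with its closest copy, Gm7336, was 31365 ± 3253 and 25235 ± 419 (-0.31, SE 0.0605, adjusted p = 0.00146), and Pgk1 with Pgk1-rs7 gave -0.33 (adjusted p = 6.22e-05). The direction and call of these 3 genes held with the closest copy summed, an alternative chosen after the data were seen. Further copies were not summed: 324 annotated genes share such words with Gapdh and 13 with Eno1. Pgk1-rs7 alone went the other way from Pgk1, at 34.2 ± 17.9 in Scr and 92.5 ± 43.5 in siCasp8 (1.41, limma adjusted p = 0.0106).

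Relative to the library totals, glycolysis genes summed to 0.476% ± 0.0245 in the 4 Scr libraries and 0.438% ± 0.00887 in the 4 siCasp8 libraries (mean ± SD), the pentose phosphate genes to 0.0765% ± 0.00268 and 0.0749% ± 0.00280, the TCA group to 0.194% ± 0.00286 and 0.191% ± 0.00248, and the hypoxia-linked genes to 0.0386% ± 0.00114 and 0.0430% ± 0.000315. The glycolysis sum in Scr replicate 3 was 0.443%, under the highest siCasp8 value of 0.447%.

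**Figure D3:**
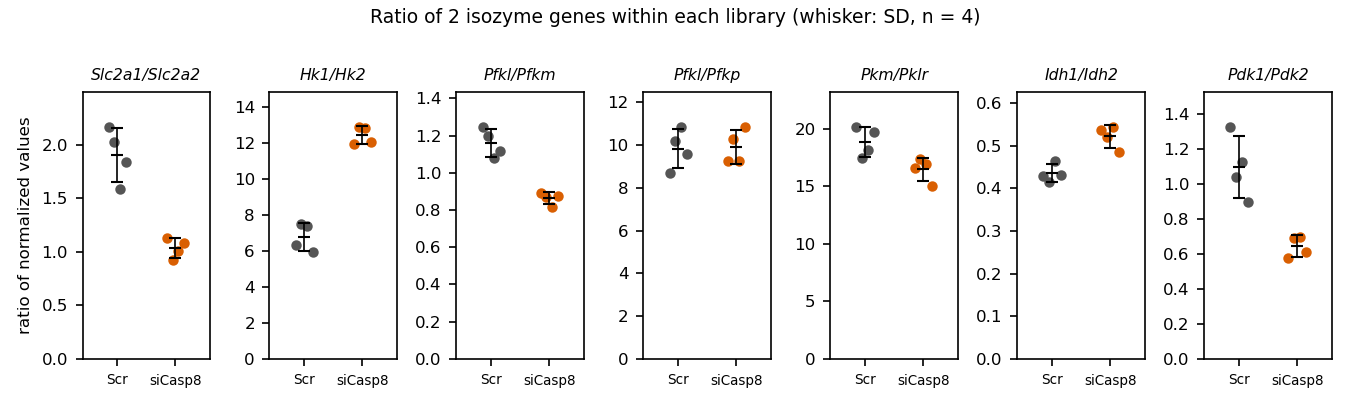
Ratio of the deposited values of 2 isozyme genes within each library (vertical axis, from 0), with the mean and SD of 4 libraries per group. The groups do not overlap for any pair but Pfkl/Pfkp, and the Hk1/Hk2 ratio goes from 6.79 to 12.5. For Pkm/Pklr the groups nearly touch, with a lowest Scr ratio of 17.45 and a highest siCasp8 ratio of 17.37. No share over other gene pairs was computed.

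In the pentose phosphate pathway, the oxidative entry enzyme rose while a non-oxidative one fell. G6pdx (chrX:74409483-74429194, minus strand), glucose 6-phosphate dehydrogenase, was 1861, 1914, 1984 and 1835 in Scr and 2119, 2101, 2054 and 2397 in siCasp8. It rose by 0.19 (SE 0.053, adjusted p = 0.0128), and siCasp8 replicate 4 stood highest. With the depth covariate G6pdx did not pass (0.19, adjusted p = 0.148). Pgls and Pgd, the next oxidative enzymes, were not called, at -0.03 (95% interval -0.16 to 0.10) and -0.02 (-0.11 to 0.06).

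Rpia (chr6:70765720-70792232, minus strand), ribose 5-phosphate isomerase, had the largest change of the 7 pentose phosphate members. It was 605, 616, 614 and 688 in Scr and 463, 467, 403 and 460 in siCasp8, a fall of 0.49 (SE 0.0724, adjusted p = 0.000176), with siCasp8 at 71.1% of the Scr mean. Scr replicate 4 and siCasp8 replicate 3 stood apart from the rest of their groups, and the call held in every alternative. Taldo1 (chr7:141392199-141402968, plus strand), transaldolase, was 6024, 6045, 5512 and 5862 in Scr and 5158, 5082, 5126 and 5335 in siCasp8. Taldo1 fell by 0.18 (SE 0.038, adjusted p = 0.00246) without overlap. It was not called under upper quartile rescaling (-0.08, adjusted p = 0.146) or with the depth covariate (-0.15, adjusted p = 0.122). Tkt, transketolase, which has the highest mean value of the pathway, was 17415, 18324, 16496 and 17170 in Scr and 16755, 16168, 15941 and 17225 in siCasp8 and was not called (-0.07, SE 0.0393, adjusted p = 0.178). Rpe, ribulose 5-phosphate epimerase, was not called either (0.04, 95% interval -0.04 to 0.12) but passed under upper quartile rescaling (0.14, adjusted p = 0.027).

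The gate between glycolysis and the TCA cycle showed the largest single rise. Pdk2 (chr11:95026258-95041354, minus strand), a kinase that inactivates pyruvate dehydrogenase, was 1426, 1635, 1457 and 1684 in Scr and 2619, 2594, 2367 and 2554 in siCasp8. The log2 fold change of 0.71 (SE 0.0598, adjusted p = 1.88e-06) was the largest rise of the 46 genes, with siCasp8 at 163% of the Scr mean, and the call held in every alternative. Pdk1, the kinase known as a HIF target, was 1890, 1700, 1637 and 1510 in Scr and 1505, 1796, 1654 and 1567 in siCasp8 and was not called (-0.05, SE 0.0717, adjusted p = 0.656). The Pdk1 to Pdk2 ratio was 1.10 ± 0.179 in Scr and 0.645 ± 0.0608 in siCasp8, without overlap. The pyruvate dehydrogenase subunits Pdha1, Pdhb and Dlat were within 0.04 of no change on the log2 scale. Their 95% intervals lay between -0.11 and 0.13. Under upper quartile rescaling, which raised the median of all genes to 0.10, Pdha1 (0.13, adjusted p = 0.0192) and Dlat (0.14, adjusted p = 0.031) were called higher.

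Among the isocitrate dehydrogenases, the cytosolic gene rose, Idh2 was not called, and the 3 subunit genes of the NAD-linked enzyme split. Idh1 (chr1:65158616-65186500, minus strand), the cytosolic NADP-linked isozyme, was 5353, 5576, 5532 and 5453 in Scr and 6392, 6330, 6506 and 6222 in siCasp8. Idh1 rose by 0.22 (SE 0.0319, adjusted p = 0.000182) without overlap. Idh2, its mitochondrial counterpart and the gene of highest mean in this group, was 12467, 13401, 11889 and 12642 in Scr and 11881, 12136, 11952 and 12840 in siCasp8 and was not called (-0.05, SE 0.0412, adjusted p = 0.413). The Idh1 to Idh2 ratio was 0.436 ± 0.0210 in Scr and 0.522 ± 0.0268 in siCasp8.

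Idh3a (chr9:54586334-54604661, plus strand), the catalytic subunit of the NAD-linked enzyme, was 4093, 4012, 4026 and 3832 in Scr and 3153, 3401, 3599 and 3061 in siCasp8. Idh3a fell by 0.27 (SE 0.0506, adjusted p = 0.000929), and was not called with the depth covariate (-0.22, adjusted p = 0.0792). The other subunit genes of that enzyme, named here after their values were seen, were higher: Idh3b was 5266 ± 153 and 5742 ± 92.8 (0.13, adjusted p = 0.0108) and Idh3g 4370 ± 224 and 4874 ± 79.8 (0.16, adjusted p = 0.00778), and both calls held in every alternative. Ogdh (chr11:6291633-6356642, plus strand), the first subunit of oxoglutarate dehydrogenase, was 6888, 6626, 5778 and 6054 in Scr and 5394, 5399, 5285 and 5413 in siCasp8. Ogdh fell by 0.23 (SE 0.0505, adjusted p = 0.00265), and again was not called with the depth covariate (-0.12, adjusted p = 0.266). Dlst (chr12:85110833-85134845, plus strand), the second subunit of that complex, was 4026, 4040, 4257 and 4167 in Scr and 3486, 3517, 3633 and 3437 in siCasp8. Dlst fell by 0.23 (SE 0.0358, adjusted p = 0.000282), and its call held in every alternative. The groups did not overlap for Idh3a, Ogdh or Dlst.

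Mdh2 (chr5:135778480-135790398, plus strand), mitochondrial malate dehydrogenase, was 10258, 10121, 9822 and 9619 in Scr and 7813, 7836, 7996 and 8140 in siCasp8. The fall of 0.32 (SE 0.0331, adjusted p = 8.84e-06) was the largest of the TCA group, with siCasp8 at 79.8% of the Scr mean. Mdh1, its cytosolic counterpart, was 7174 ± 195 and 7247 ± 137 and was not called (0.01, adjusted p = 0.758). Mdh1 passed under upper quartile rescaling (0.12, adjusted p = 0.0311). Fh1, fumarase, passed at -0.13 (adjusted p = 0.0447) with overlapping groups, and the call was lost under 11 alternatives, including the depth covariate (-0.12, adjusted p = 0.337) and leaving out any of Scr replicates 1 and 3 or siCasp8 replicates 1, 3 and 4. Cs, citrate synthase, had groups that did not overlap but was not called (-0.08, adjusted p = 0.0662). The succinyl-CoA ligase genes Suclg1 (0.08) and Sucla2 (-0.08) were not called, but Suclg1 passed under upper quartile rescaling (0.18, adjusted p = 0.00383).

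Of the hypoxia-linked genes, Bnip3 and Ndrg1 rose, and Egln3 and Hif1a were not called. Bnip3 (chr7:138890836-138909519, minus strand), a mitophagy receptor and known HIF target, was 1641, 1540, 1718 and 1617 in Scr and 2000, 2020, 1905 and 1881 in siCasp8. Bnip3 rose by 0.26 (SE 0.0469, adjusted p = 0.000772), and the call held in every alternative. Ndrg1 (chr15:66929318-66969640, minus strand), a stress-responsive gene also induced by hypoxia, was 10047, 11313, 10669 and 11131 in Scr and 12151, 12481, 12297 and 12679 in siCasp8. It rose by 0.20 (SE 0.0396, adjusted p = 0.00142), but was not called with the depth covariate (0.16, adjusted p = 0.103). Neither Bnip3 nor Ndrg1 had overlapping groups. Egln3, the HIF prolyl hydroxylase that HIF itself induces, was 482, 459, 426 and 445 in Scr and 362, 394, 441 and 433 in siCasp8 and was not called (-0.16, adjusted p = 0.145). Hif1a, the HIF-1 alpha subunit, whose activity is set mainly by protein stability, was 4678, 4723, 4753 and 4326 in Scr and 4289, 4279, 4496 and 4119 in siCasp8 and was not called (-0.10, adjusted p = 0.0638).

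In the wider list of 23 hypoxia pathway genes and HIF targets, 22 were tested, of which 7 were higher and 4 lower (50.0%, median 0.04). Of all tested genes 40.2% were called. Upper quartile rescaling gave 11 higher and 2 lower, beside 4471 higher and 1665 lower over the whole table. With the depth covariate 3 were higher and 1 lower (18.2%), beside 1302 higher and 1494 lower over the whole table. Vegfa, the vascular growth factor, was 1897 ± 137 in Scr and 2761 ± 70.6 in siCasp8 (0.54, adjusted p = 4.75e-06). Higd1a, a mitochondrial protein gene induced by hypoxia, was 846 ± 51.1 and 611 ± 34.0 (-0.47, adjusted p = 0.000103). Ddit4, a stress-induced inhibitor of mTORC1 signalling, was 1447 ± 107 and 1195 ± 49.5 (-0.27, adjusted p = 0.00274), and with the depth covariate the value was -0.28 but was not called (adjusted p = 0.0658). Bhlhe40, a transcriptional repressor, was 2312 ± 163 and 3206 ± 89.7 (0.47, adjusted p = 1.3e-05).

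Other genes of the 3 pathways were counted from lists that complete them. Of 17 further glycolysis genes 11 were tested, with 3 higher and 3 lower (54.5%, against 40.2% of all tested genes). Under upper quartile rescaling 4 were higher and 0 lower, beside 4471 higher and 1665 lower over the whole table. Slc16a1, the monocarboxylate transporter MCT1, was 2466 ± 93.4 and 3034 ± 53.3 (0.30, adjusted p = 7.27e-05). Bpgm, bisphosphoglycerate mutase, was 1343 ± 93.1 and 1124 ± 47.7 (-0.26, adjusted p = 0.00376). It was not called with upper quartile rescaling (-0.15, adjusted p = 0.0602) or the depth covariate (-0.27, adjusted p = 0.0719). Eno2, the neuronal enolase, was 257 ± 40.2 and 193 ± 34.4 (-0.41, adjusted p = 0.0365) with overlapping groups, and the call was lost under 8 alternatives.

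Of 7 further pentose phosphate genes 5 were tested, with 2 higher and 1 lower (60.0%, against 40.2% of all tested genes). Shpk, sedoheptulokinase, was 164, 168, 150 and 162 in Scr and 303, 287, 298 and 259 in siCasp8, a rise of 0.82 (SE 0.0902, adjusted p = 1.61e-05). Prps2, which makes phosphoribosyl pyrophosphate from ribose 5-phosphate (0.12, adjusted p = 0.0484), and H6pd, the endoplasmic reticulum enzyme (-0.13, adjusted p = 0.0434), passed narrowly, and each lost its call under 10 or more alternatives.

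Of 29 further pyruvate dehydrogenase and TCA genes, all tested, 5 were higher and 8 lower (44.8%, against 40.2% of all tested genes). Under upper quartile rescaling 12 were higher and 3 lower, where the whole table also moved to 4471 higher and 1665 lower. Mpc1, a subunit of the mitochondrial pyruvate carrier, was 1685 ± 40.5 and 2061 ± 28.8 (0.29, adjusted p = 8.36e-05). Pdk3, a further pyruvate dehydrogenase kinase, was 721, 707, 724 and 710 in Scr and 510, 481, 533 and 483 in siCasp8, a fall of 0.51 (SE 0.0587, adjusted p = 2.36e-05). Of the 4 kinase genes, Pdk2 was higher, Pdk3 lower, and Pdk1 and Pdk4 (0.16, adjusted p = 0.374) were not called. Me1, cytosolic malic enzyme, was 30561 ± 1142 and 23348 ± 420 (-0.39, adjusted p = 2.85e-06), and Me3, a mitochondrial malic enzyme, was 919 ± 59.9 and 1103 ± 78.1 (0.26, adjusted p = 0.00722).

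Spread between libraries was also described, without a test. The median coefficient of variation over the 46 genes was 4.46% in Scr and 3.48% in siCasp8, and over the 19 glycolysis genes 5.21% and 3.39%. Scr replicate 3 was the lowest of the Scr libraries for 15 of 19 glycolysis genes and for 23 of all 46. Scr replicate 1 was the highest for 10 of the 19. In siCasp8, replicate 4 was the highest for 24 of 46 genes and for 6 of 7 pentose phosphate genes. Without Scr replicate 3 the counts in glycolysis were 4 higher and 10 lower, as with it. They were 4 and 7 without Scr replicate 1, Scr replicate 2, siCasp8 replicate 2 or siCasp8 replicate 3, and 3 and 8 without Scr replicate 4. Without siCasp8 replicate 1 they were 3 and 10, and without siCasp8 replicate 4 they were 3 and 9.

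**Figure D4:**
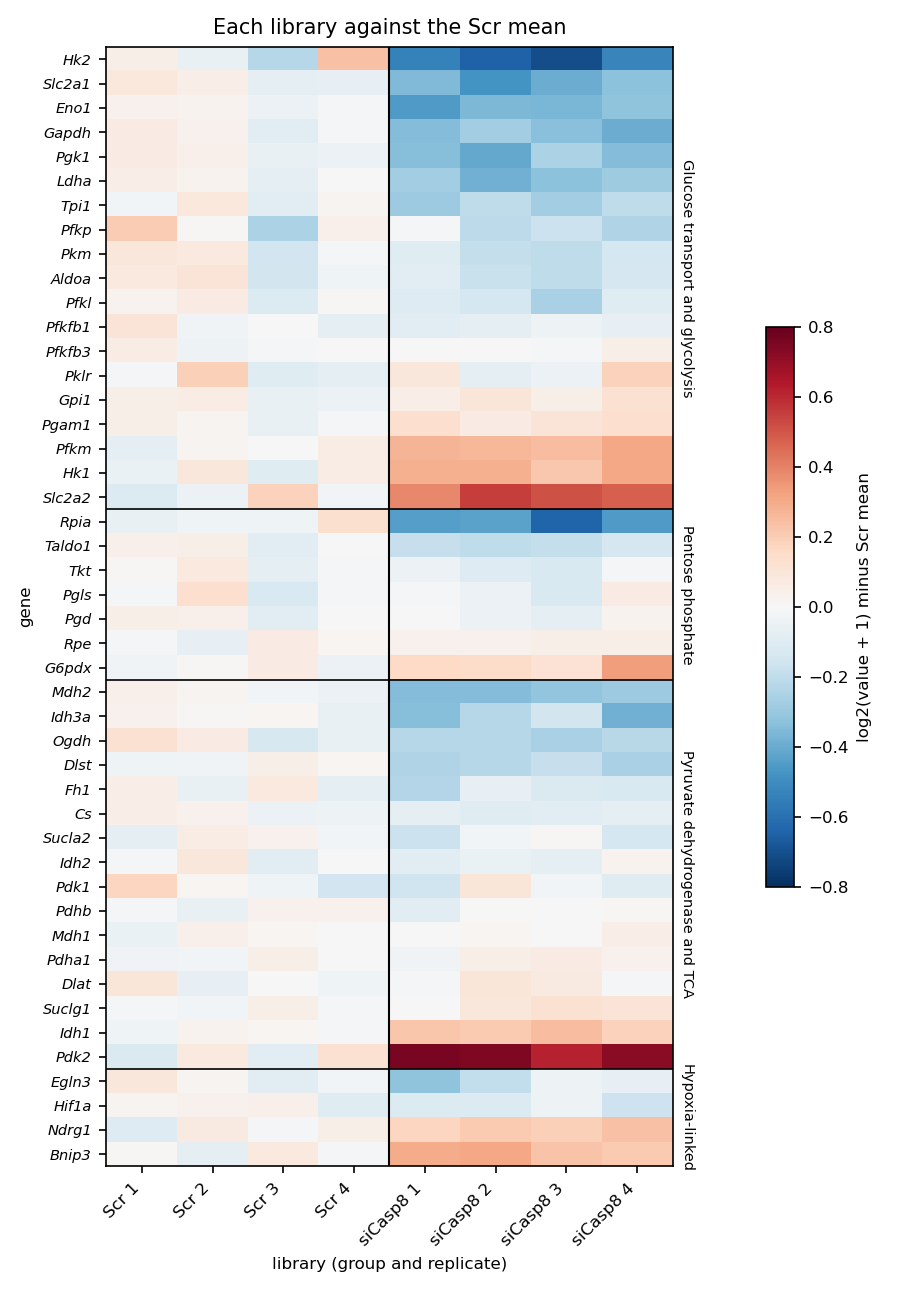
Difference of each library from the Scr mean on the log2(value + 1) scale (colour) for the 46 tested genes (rows, by pathway) in the 8 libraries (columns). Hk2, Slc2a1, Eno1 and Gapdh are below the Scr mean in all 4 siCasp8 libraries, and Slc2a2 and Pdk2 above it.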

How the data were processed

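Poly-A RNA of 8 AML12 cultures was sequenced, and each library was grouped by its title. Per the submitters' processing notes, the tools were kallisto 0.44.0, bcl2fastq 2.19, DESeq2 and sleuth, and the builds GRCm38 and GRCh38, with no role or order given. The table deposited by the authors holds a normalized signal per gene symbol (kallisto values normalized with DESeq2, per the file's name), which is never negative and is not reads. The annotation behind it is not given in the sources used here. Values sum to like totals in all libraries, so depth was estimated from the spacing of low values. Of those values (up to 20.5 reads), 66.4% to 75.0% lay within 0.1 of a whole read, so count models were not used. An unnamed row held 0.0481% to 0.0631% of each total and was left out.

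The test was limma 3.58.1 in R 4.3.3 (two-sided, trended prior variance, siCasp8 minus Scr) on log2(value + 1), a scale that understates the change of low genes. Genes with a mean of at least 10 were tested (14154), with Benjamini-Hochberg adjustment over all of them and calls at an adjusted p under 0.05. The script was tested on simulated data. Ratios and sums have no test. Transcript lengths and gene positions are from GENCODE M21 (GRCm38). The members and lists were chosen with earlier results of these data known. Named genes are, per group, the 4 called genes of largest change in each direction, the gene of highest mean and the isozyme pairs, and from each other list the 2 of largest change in each direction. Further members are named to account for all 47. A gene that the rule gives is not reported here, though counts include it. Alternatives changed the pseudocount, filter, scaling, prior variance, depth covariate, replicate block and each library.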

Additional observations from a re-analysis of the deposited data

Results flagged for a closer look

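In 7 of 174 groups of 4 libraries (4.0%), 1 library stood far from the other 3 by Dixon's criterion, which chance meets in about 1 group in 20. Rpia was highest in Scr replicate 4, at 688, with the other Scr libraries between 605 and 616, and lowest in siCasp8 replicate 3, at 403, with the others between 460 and 467. Pdhb was lowest in siCasp8 replicate 1, at 2358, beside 2495 to 2515. Ogdh was lowest in siCasp8 replicate 3, at 5285, beside 5394 to 5413. Suclg1 was highest in Scr replicate 3, at 4634, beside 4419 to 4432. Outside the 47 genes, Higd1a was highest in siCasp8 replicate 3, at 662, beside 587 to 599, and the hepatocyte marker Apob was highest in siCasp8 replicate 1, at 24314, beside 21035 to 21305.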

How the results depend on the processing

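The Casp8 log2 fold change stayed between -1.47 and -1.33 and was called in each alternative run. With estimated depth as a covariate, 2796 genes in place of 5689 were called, and 10 members in place of 17 were lower. Estimated depth was mostly higher in siCasp8, so the effects of depth and group cannot be fully told apart in that fit. Upper quartile rescaling made 15 members higher in place of 9. Leaving out each library in turn gave 4800 to 5719 called genes, 8 to 9 members higher and 13 to 17 lower. Among the 46 members, directions turned only for ones that were not called. Under upper quartile rescaling the log2 fold changes that turned were 0.0338 for Pfkfb1, 0.0719 for Pgls, 0.0768 for Pgd, 0.0304 for Tkt, 0.0818 for Pdhb, 0.0552 for Pdk1, 0.0170 for Cs, 0.0550 for Idh2 and 0.0200 for Sucla2. With the depth covariate they were 0.00608 for Pfkfb1, 0.0243 for Pgls, 0.0118 for Pgd, -0.00430 for Rpe and 0.0946 for Pdk1, and with quantile normalization 0.00634 for Pgd and 0.0218 for Idh2. With each library left out in turn, the range that crossed 0 was -0.00763 to 0.0274 for Pfkfb3, -0.0105 to 0.101 for Pklr, -0.0688 to 0.0167 for Pgls, -0.0396 to 0.00298 for Pdhb, -0.0965 to 0.0116 for Pdk1 and -0.00250 to 0.0286 for Mdh1. The cause of these shifts was not tested.

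Same-numbered libraries of the 2 groups had residual correlations of 0.0785, 0.0442, 0.169 and 0.0554, and each Scr library correlated best with its own number, a hint from the data and not the design. With the replicate number as a block, 6020 genes were called and 9 members were higher and 17 lower. Fh1 lost its call there and Hif1a gained one. Depth is an estimate, and whole reads could not be recovered, so no counting error is given.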

Other observations

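Of 15 regulators of glucose metabolism, all tested, 5 were higher and 4 lower (60.0%, against 40.2% of all tested genes). Under upper quartile rescaling 7 were higher and 1 lower, beside 4471 higher and 1665 lower over the whole table. Txnip, a glucose-responsive gene whose protein limits glucose uptake, was 2505, 3563, 3805 and 3560 in Scr and 6894, 8574, 8100 and 8247 in siCasp8, a log2 fold change of 1.26 (SE 0.112, limma adjusted p = 2.85e-06), and Scr replicate 1 was the lowest library. Ppargc1b, a coactivator of mitochondrial genes, was 30.9 ± 5.25 and 65.6 ± 8.17 (SD, n = 4 each; 1.07, adjusted p = 0.000621). Myc, a transcription factor known to act on glycolytic genes, was 6578 ± 365 and 4955 ± 113 (-0.41, adjusted p = 1.01e-05). Ppargc1a, a relative of Ppargc1b, was 1067 ± 57.4 and 884 ± 69.7 (-0.27, adjusted p = 0.00539) and was not called with upper quartile rescaling (-0.17, adjusted p = 0.0609) or the depth covariate (-0.23, adjusted p = 0.162).

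Among the 15 cell division genes, all lower, the median log2 fold change was -0.98, with Mki67 at -1.19 and Tpx2 at -1.15. The counts stayed at 15 lower under upper quartile rescaling and with the depth covariate. Of all 14154 tested genes 20.8% were lower in the main fit, and 1665 and 1494 genes were lower in those 2 alternatives.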
